A study of Mus musculus with 16 samples.

Results

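The genes described here are the receptors of the IL-6 family of cytokines, the transcription factor STAT3 and the genes that STAT3 signalling is known to act through, measured in mouse pancreatic islets exposed to IL-1β, butyrate or both. They were taken by name and number 10 of the 52636 genes in the table, namely the receptor genes *Il6ra*, *Il6st*, *Osmr* and *Lifr*, the transcription factor gene *Stat3*, the feedback inhibitor genes *Socs1*, *Socs2* and *Socs3*, and the C/EBP transcription factor genes *Cebpb* and *Cebpd*. All 10 passed the filter on low counts, as did 18587 genes in total. RNA was sequenced in 16 libraries, with 4 independent experiments (replicates 1 to 4) for each of 4 conditions.

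All islets came from male mice at 12 weeks of age, labelled C57BL/6JRj in the sample records and C57BL/6NRj in the study's methods, and each library was made from 500 islets pooled from several animals, so a replicate was an experiment and not a mouse. The culture lasted 10 days and its medium held human serum in every condition, the controls included. Control islets received no addition, IL-1β islets received 50 pg/ml of recombinant mouse IL-1β, butyrate islets received 0.2 mM sodium butyrate, and the combination islets received both. Whole islets hold beta, alpha and delta cells with a small number of other cells, and a lower level in bulk RNA can come from fewer cells of a type or from less RNA per cell, which cannot be told apart here.

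Cytokines of the IL-6 family act through receptor complexes that share the signalling chain gp130, the product of *Il6st*. IL-6 binds the receptor chain encoded by *Il6ra*, leukemia inhibitory factor binds the chain encoded by *Lifr*, and oncostatin M binds the chain encoded by *Osmr*, each together with gp130. The complex activates JAK kinases, which phosphorylate STAT3, and STAT3 then enters the nucleus and turns on target genes that include *Socs3*, whose product inhibits the gp130 complex, and the C/EBP factors of the acute phase response. IL-1β has its own receptor, which signals through NF-κB rather than through gp130. In islets, IL-6 is known for its action on alpha cells, and SOCS proteins for dampening cytokine signalling in beta cells.

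By GENCODE M21 (GRCm38), the receptor genes lie at chr3:89864059-89913196 (*Il6ra*, ENSMUSG00000027947, minus strand), chr13:112464070-112510086 (*Il6st*, ENSMUSG00000021756, plus strand), chr15:6813577-6874969 (*Osmr*, ENSMUSG00000022146, minus strand) and chr15:7090614-7197489 (*Lifr*, ENSMUSG00000054263, plus strand). *Stat3* (ENSMUSG00000004040) lies at chr11:100885098-100939540 on the minus strand. The SOCS genes, all on the minus strand, lie at chr16:10782240-10785536 (*Socs1*, ENSMUSG00000038037), chr10:95385362-95417180 (*Socs2*, ENSMUSG00000020027) and chr11:117966079-117970047 (*Socs3*, ENSMUSG00000053113). *Cebpb* (ENSMUSG00000056501) lies at chr2:167688915-167690418 and *Cebpd* (ENSMUSG00000071637) at chr16:15887286-15891031, both on the plus strand. *Il6ra* shares 242 exon bases with *Gm42809* on the opposite strand, and values given below are over the exons of each gene.

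The Socs3 promoter is shown because it was the only promoter window of these genes with a STAT motif. RefSeq windows (250 bases before and 50 after the transcription start, GRCm38.p6) were at hand for 8 of the 10 genes, in 9 windows, with *Socs2* and *Cebpd* not among them. The motif TTCNNNGAA, which reads the same on both strands, occurred in 8.298% of all 32851 windows, and the C/EBP motif TTGCNNAA (TTNNGCAA on the other strand) in 10.797%. None of the 9 windows held the C/EBP motif. The stretch of the *Socs3* window around the STAT motif lies at chr11:117969502-117969530 and is given 5′ to 3′ on the minus strand, the strand of the gene, with the motif in capitals.
Socs3: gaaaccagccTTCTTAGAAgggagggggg
The motif starts 154 bases before the RefSeq start. In GENCODE M21, where *Socs3* has more than 1 start, these bases lie within 1 *Socs3* transcript and over 0 of its exons, that is, in an intron. The match is a description of the letters and not a measured binding site.

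The 16 libraries held 18635943 to 25955943 counts. The markers of beta cells had a summed level of 213290 to 236070 CPM (counts scaled to the size of the library, TMM) in control islets, as the labelled tissue would have, against 18.6 to 29.9 CPM for 6 acinar markers, of which *Amy2a1* was at 0 in every library, and 2.10 to 3.59 CPM for 5 T cell markers. With IL-1β the beta cell sum was 136720 to 178270 CPM, with 6 of the 7 markers lowered and 1 raised. Of all genes tested, IL-1β lowered 6.59% and raised 11.2%. The sum of 7 macrophage markers was 125 to 140 CPM in control islets and 166 to 199 CPM with IL-1β, and 6 of the 7 were raised by IL-1β. Their sum was dominated by *C1qa*, the 1 marker that was lowered by IL-1β, and without it (a choice made after its values were seen) the other 6 summed to 15.5 to 25.6 CPM in control islets, 75.0 to 131 CPM with IL-1β, 32.8 to 73.0 CPM with the combination and 12.2 to 21.3 CPM with butyrate. The sum of 3 delta cell markers was 1689 to 1989 CPM in control islets, 1739 to 2216 CPM with IL-1β, 2622 to 3184 CPM with the combination and 2389 to 2769 CPM with butyrate, so it was higher in all libraries with butyrate. The sum of 5 duct markers was 340 to 367, 499 to 597, 514 to 812 and 327 to 366 CPM in the same order, and was higher in all libraries with IL-1β. Some markers of these 2 lists were called. Of all genes tested, butyrate raised 8.53% without IL-1β. Added to IL-1β it raised 8.41% and lowered 11.1%. In the presence of butyrate, IL-1β raised 9.92%. Of the 3 delta cell markers, butyrate raised 1 without IL-1β and 1 with it. Of the 4 duct markers tested, IL-1β raised 2 without butyrate and 1 with it. Butyrate added to IL-1β raised 0 duct markers and lowered 1. The part of these shifts in the results below was not tested.

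Butyrate replicate 1 stood apart from the other butyrate libraries in some of the genes that IL-1β raised. It held 146 counts of *Cebpd*, where the others held 72, 67 and 80. It also held 57 counts of *Steap4* against 3, 4 and 5, and 33 counts of *Fgg* against 0, 2 and 2. Other genes that IL-1β raised were lowest in it, such as *Lif* (24 against 35, 31 and 56) and *Cebpa* (32 against 45, 44 and 48). *Bcl3* (176 against 196, 140 and 188) and *Jak3* (210 against 176, 138 and 235) lay within the range of the others. Results of *Cebpd* that compare this library are therefore also given without it, and so is the loss of a call for *Stat3*. *Socs1*, which rested on few counts, also moved without this library. Its log2 fold change with butyrate alone went from 0.013 to -0.23.

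Levels of different genes were compared as FPKM, that is, CPM divided by the exon length of the gene in kilobases. In control islets *Il6ra* had the highest level, with 24.8 ± 0.87 FPKM (mean ± SD, n = 4 in each condition throughout), followed by *Stat3* with 15.8 ± 0.86 FPKM. *Cebpb* with 13.5 ± 0.73 FPKM and *Il6st* with 12.7 ± 0.27 FPKM came next and overlapped, and *Lifr* had 12.1 ± 0.27 FPKM. *Socs3* was lower, at 2.99 ± 0.058 FPKM. *Cebpd* at 0.814 ± 0.086 FPKM and *Socs2* at 0.672 ± 0.027 FPKM overlapped, and *Socs1* at 0.266 ± 0.10 FPKM and *Osmr* at 0.0544 ± 0.020 FPKM were lowest. The receptors for IL-6 and LIF, with their shared chain, were therefore well above the oncostatin M receptor in unstimulated islets. With IL-1β the order changed, and *Stat3* came first with 33.7 ± 1.4 FPKM, ahead of *Il6ra* with 27.0 ± 0.78 FPKM and *Cebpd* with 20.2 ± 2.6 FPKM. *Socs3*, at 9.68 ± 1.1 FPKM, then overlapped both *Il6st* at 10.8 ± 0.58 FPKM and *Lifr* at 9.10 ± 0.79 FPKM. With the combination *Stat3* was again highest, at 34.4 ± 0.95 FPKM, and *Cebpd*, at 28.4 ± 2.5 FPKM, overlapped *Il6ra* at 25.1 ± 0.87 FPKM.

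**Figure D1:**
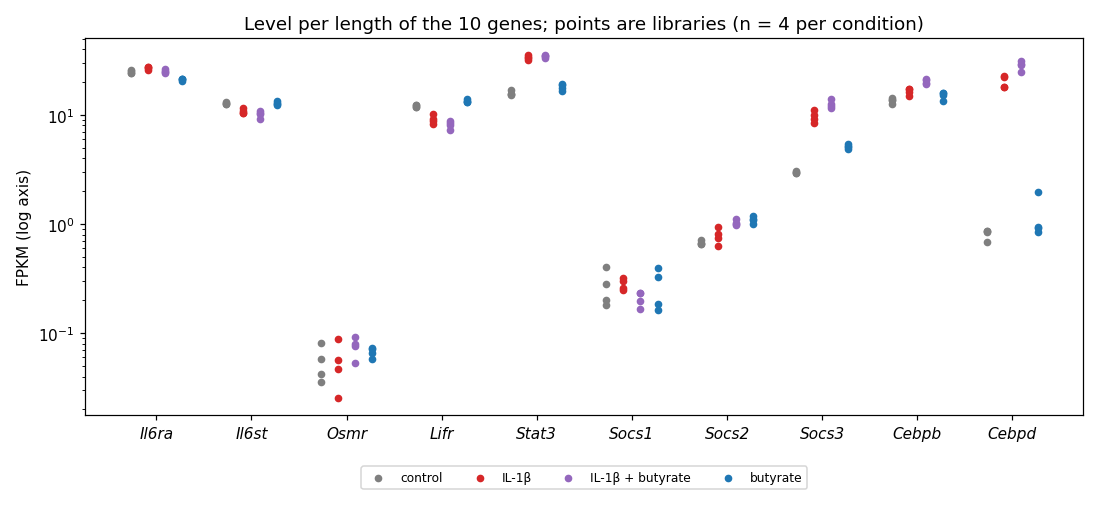
Level per length (FPKM, log axis) of the 10 genes, with 1 point for each library and 4 libraries per condition, in the order control, IL-1β, combination, butyrate. Il6ra, Il6st, Lifr, Stat3 and Cebpb lie between 7.28 and 35.4 FPKM in every library, while Cebpd is at 0.686 to 0.868 FPKM in the control libraries and at 17.9 to 22.7 FPKM in the IL-1β libraries.

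The response to IL-1β was examined first. IL-1β changed 6 of the 10 genes at an adjusted p under 0.01 (edgeR quasi-likelihood test, Benjamini-Hochberg over all 18587 genes), with *Stat3*, *Socs3*, *Cebpb* and *Cebpd* raised and *Il6st* and *Lifr* lowered. Of all genes tested, 17.8% were called in this comparison, 11.2% as raised and 6.59% as lowered. DESeq2 called 7 of the 10. The CPM of the 2 conditions did not overlap for 24.7% of all genes, and for the 6 genes called and *Il6ra* among these 10.

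*Stat3*, the transcription factor that the family signals through, had 162, 144, 148 and 147 CPM in the 4 control libraries and 337, 324, 306 and 319 CPM in the 4 IL-1β libraries. Every IL-1β library was above every control library. The log2 fold change was 1.10 ± 0.050 (SE), a 2.14-fold rise, with an adjusted p of 1.0e-15 (edgeR). A stretch of 72 bases of its exons is shared with *Stat5a* on the opposite strand, and whether reads were counted by strand is not given in the sources used here.

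*Socs3*, the feedback inhibitor of gp130, had 8.63, 8.51, 8.89 and 8.56 CPM in control islets and 24.5, 29.2, 26.5 and 31.8 CPM with IL-1β. The groups were far apart, and the control libraries differed by less than the IL-1β libraries did, with a coefficient of variation of 1.94% against 11.4%. The rise was 3.25-fold, with a 95% interval of the log2 fold change from 1.54 to 1.86 and an adjusted p of 1.3e-15 (edgeR). Within libraries, the level of *Socs3* per level of *Stat3*, both in FPKM, was 0.176 to 0.198 in control islets against 0.239 to 0.329 with IL-1β, so these ranges did not overlap.

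The other SOCS genes were not called. *Socs2*, which is best known as an inhibitor of growth hormone signalling, had 6.21 to 6.76 CPM in control islets and 6.00, 7.16, 8.97 and 7.69 CPM with IL-1β, and the groups overlapped (log2 fold change 0.22 ± 0.10, adjusted p = 0.112, edgeR). *Socs1*, an inhibitor of interferon and cytokine receptors, had 11 to 25 counts in a control library and 14 to 21 counts with IL-1β. At this depth the 95% interval of its log2 fold change ran from -0.52 to 0.70, so neither a moderate rise nor a moderate fall could be detected.

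*Cebpd*, a C/EBP factor of the acute phase response, moved most among the 10. It had 3.17, 3.25, 3.20 and 2.57 CPM in control islets and 84.9, 82.8, 67.0 and 67.7 CPM with IL-1β. It rose 24.8-fold (log2 fold change 4.63 ± 0.19), with an adjusted p of 3.4e-10 (edgeR), and by size it ranked 45 among the 18587 genes tested. *Cebpb*, its relative, had 20.4, 20.5, 18.8 and 21.5 CPM in control islets and 25.9, 25.9, 22.4 and 24.5 CPM with IL-1β. The groups did not overlap, but the rise was small, with a log2 fold change of 0.28 ± 0.064 and an adjusted p of 0.00136 (edgeR). On the opposite strand, 562 exon bases of *Cebpd* are shared with *Spidr* and 312 of *Cebpb* with *Tmem189*.

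Both receptor genes called fell. *Lifr*, which encodes the LIF receptor, had 127, 133, 132 and 128 CPM in control islets and 109, 99.3, 95.4 and 88.4 CPM with IL-1β. Every IL-1β library was below every control library, and the log2 fold change was -0.41 ± 0.056 with an adjusted p of 2.0e-06 (edgeR). *Il6st*, which encodes gp130, had 139, 139, 145 and 143 CPM in control islets and 129, 115, 121 and 116 CPM with IL-1β (log2 fold change -0.23 ± 0.049, adjusted p = 5.7e-04, edgeR). The summed level of the beta cell markers fell in the same libraries, as given above, and its part in the fall of both receptor genes was not tested.

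*Il6ra*, which encodes the IL-6 binding chain, had 223, 208, 218 and 208 CPM in control islets and 232, 224, 238 and 238 CPM with IL-1β. The groups did not overlap, yet the log2 fold change of 0.12 ± 0.042 did not pass the threshold (adjusted p = 0.0290, edgeR), and it did with DESeq2 (adjusted p = 0.00377) and with library size as the only scaling (adjusted p = 0.00311). *Osmr*, which encodes the oncostatin M receptor, had 9 to 23 counts in a control library and 6 to 22 counts with IL-1β. Its interval, from -0.66 to 0.65 on the log2 scale, was too wide to show a change in either direction. Within libraries, *Il6ra* per *Il6st* was 1.87 to 2.06 in control islets against 2.31 to 2.63 with IL-1β, and *Lifr* per *Il6st* was 0.923 to 0.984 and 0.782 to 0.891 (ratios of FPKM), and in neither ratio did the ranges overlap.

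**Figure D2:**
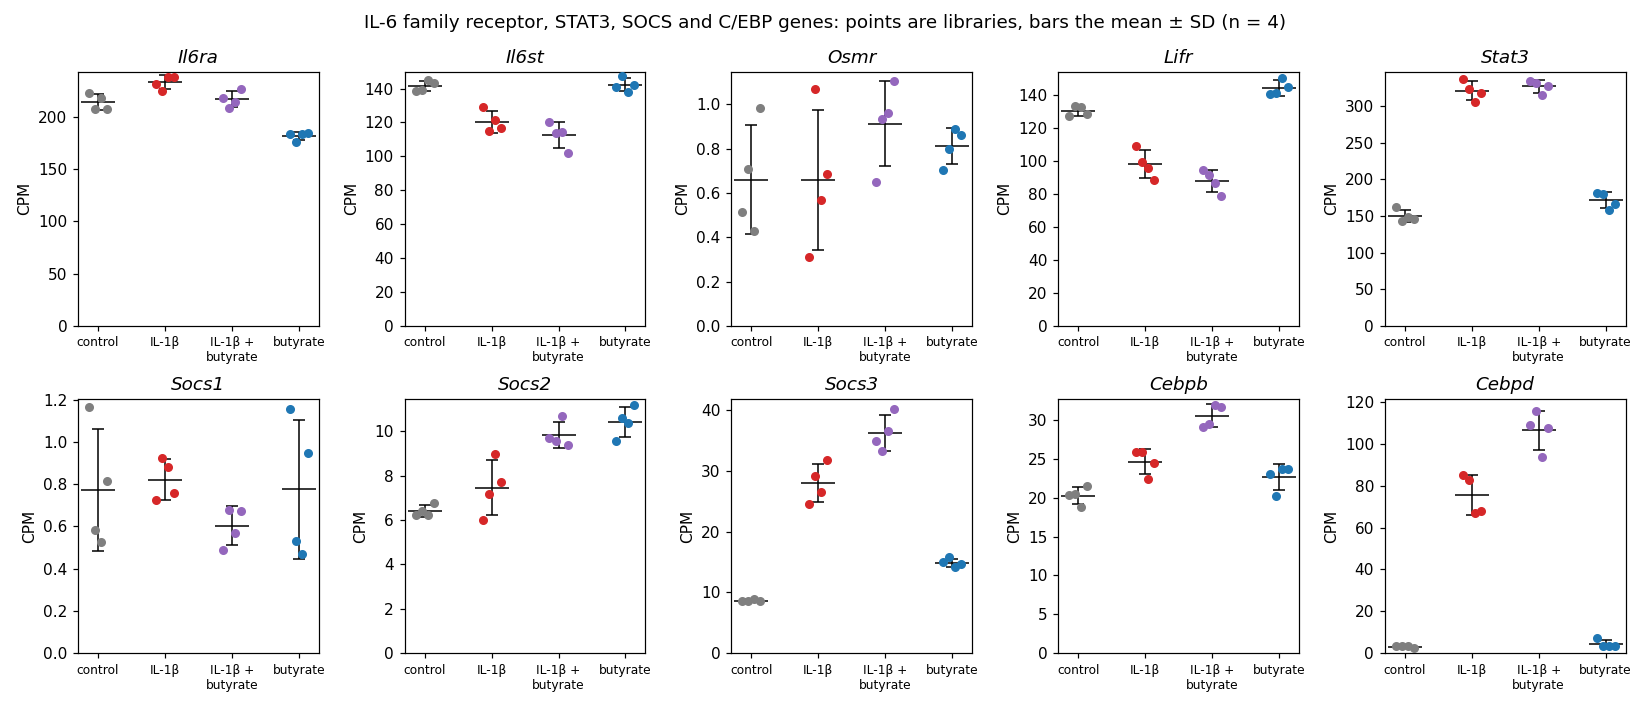
CPM of each of the 10 genes in each library (points), with the mean and SD of the 4 libraries of a condition, each axis starting at 0. Stat3, Socs3 and Cebpd are higher in all IL-1β libraries, with or without butyrate, than in all libraries without IL-1β, and Lifr is lower in all of them.

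The same question was asked in the presence of butyrate, by comparing the combination with butyrate alone, which uses none of the libraries of the comparison above. Of the 10 genes, 7 were called, 5 as raised and 2 as lowered, where 14.8% of all genes were called, 9.92% as raised and 4.86% as lowered. The CPM of the conditions did not overlap for these 7 genes, and for 24.2% of all genes. *Stat3* had 335, 332, 315 and 327 CPM with the combination and 182, 180, 158 and 167 CPM with butyrate, a log2 fold change of 0.93 ± 0.050 (adjusted p = 3.4e-14, edgeR). *Socs3* had 34.9, 33.3, 36.5 and 40.2 CPM against 14.9, 15.8, 14.2 and 14.7 CPM, a log2 fold change of 1.28 ± 0.072 (adjusted p = 1.0e-13, edgeR). Both genes were higher in every combination library than in every butyrate library.

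*Cebpd* had 109, 116, 93.6 and 108 CPM with the combination and 7.33, 3.20, 3.50 and 3.44 CPM with butyrate, with the first butyrate library above the others. The log2 fold change was 4.62 ± 0.18 (adjusted p = 2.3e-10, edgeR), and without butyrate replicate 1 it was 4.98. *Cebpb* rose by 0.43 ± 0.062 on the log2 scale and *Il6ra* by 0.26 ± 0.042. *Lifr* fell from 140 to 150 CPM with butyrate to 94.1, 91.5, 86.3 and 78.5 CPM with the combination (log2 fold change -0.72 ± 0.056, adjusted p = 1.2e-10, edgeR), and *Il6st* had a log2 fold change of -0.34 ± 0.049. *Socs2* (-0.08 ± 0.091), *Socs1* (-0.37 ± 0.31) and *Osmr* (0.16 ± 0.30) were not called, with overlapping libraries and adjusted p-values from 0.467 to 0.783 (edgeR). *Stat3*, *Socs3*, *Cebpb*, *Cebpd*, *Lifr* and *Il6st* were thus called in the same direction with IL-1β whether butyrate was present or not.

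Whether the size of the IL-1β effect differed with butyrate was tested as the difference of the 2 effects. None of the 10 genes was called (0 with edgeR and 0 with DESeq2, with 5 at an unadjusted p under 0.05), and 0.0968% of all genes were, 0.043% with a higher and 0.0538% with a lower IL-1β effect in the presence of butyrate. The difference was -0.42 ± 0.11 on the log2 scale for *Socs3* (adjusted p = 0.114, edgeR) and -0.30 ± 0.079 for *Lifr* (adjusted p = 0.123, edgeR). *Stat3* differed by -0.17 ± 0.070, *Socs2* by -0.30 ± 0.14 and *Il6ra* by 0.13 ± 0.060, each with an unadjusted p under 0.05 only. *Il6st* (-0.10 ± 0.069), *Cebpb* (0.15 ± 0.089), *Osmr* (0.16 ± 0.44) and *Socs1* (-0.46 ± 0.43) had adjusted p-values from 0.793 to 0.985 (edgeR). For *Cebpd* the difference was -0.01 with a 95% interval from -0.61 to 0.60, and without butyrate replicate 1 it was 0.35 (adjusted p = 0.844, edgeR).

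**Figure D3:**
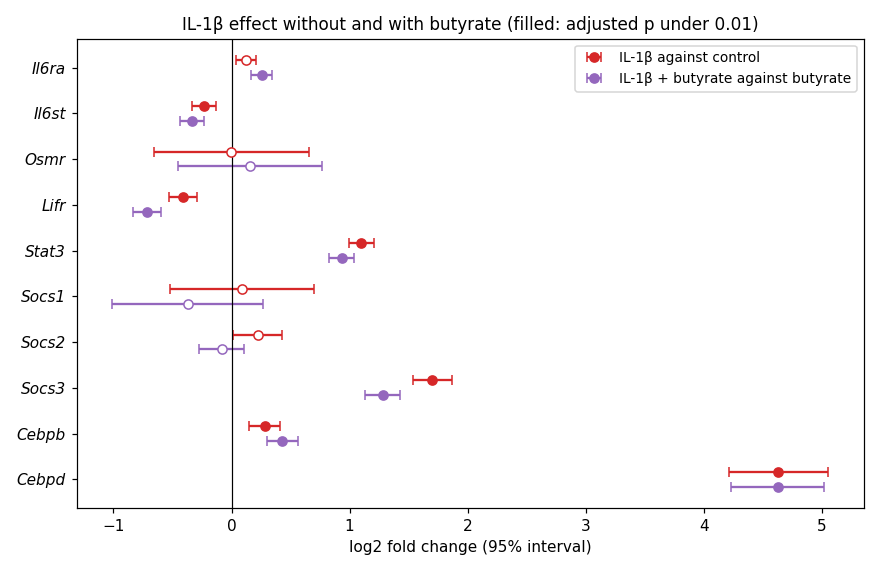
Log2 fold change with its 95% interval for each of the 10 genes, for IL-1β against control (red) and for IL-1β plus butyrate against butyrate (purple), with filled points at an adjusted p under 0.01. Cebpd, Socs3 and Stat3 lie to the right of 0 in both comparisons and Lifr and Il6st to the left, while the intervals of Osmr and Socs1 are wide and span 0.

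The study asked how butyrate acts on genes that IL-1β regulates, and for this the combination was compared with IL-1β alone. This comparison gives the effect of butyrate in the presence of IL-1β. Whether the IL-1β effect itself differed with butyrate is the difference of the effects given above. Of the 10 genes, 3 were raised (*Socs2*, *Socs3* and *Cebpb*) and 0 lowered, where 19.5% of all genes were called, 8.41% as raised and 11.1% as lowered. DESeq2 also called 3, and 6 had an unadjusted p under 0.05. This comparison shares the IL-1β libraries with that of IL-1β against control. Non-overlapping groups were seen for 26.9% of all genes, and here for the 3 genes called, *Cebpd* and *Socs1*.

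*Stat3* was not called. Its 4 combination libraries, at 315 to 335 CPM, lay within the range of the 4 IL-1β libraries, at 306 to 337 CPM, and the 95% interval of the log2 fold change ran from -0.07 to 0.13. *Socs3*, in contrast, was at 33.3 to 40.2 CPM in the combination libraries, all above the IL-1β libraries at 24.5 to 31.8 CPM. Its log2 fold change was 0.36 ± 0.067 (adjusted p = 1.5e-04, edgeR), and its level per *Stat3* was 0.330 to 0.405 with the combination, just above the 0.239 to 0.329 with IL-1β.

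*Socs2* had 9.71, 9.55, 10.7 and 9.39 CPM with the combination, all above the IL-1β libraries. The log2 fold change was 0.40 ± 0.095 (adjusted p = 0.00199, edgeR), and the call was lost without IL-1β replicate 1 (adjusted p = 0.0175) or without combination replicate 3 (adjusted p = 0.0156). *Cebpb* had 29.1, 29.6, 32.0 and 31.7 CPM with the combination, also without overlap (log2 fold change 0.31 ± 0.062, adjusted p = 3.3e-04, edgeR).

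*Cebpd*, at 93.6 to 116 CPM with the combination, was above the IL-1β libraries at 67.0 to 84.9 CPM in every library. Its log2 fold change of 0.50 ± 0.13 was just outside the threshold (adjusted p = 0.0109, edgeR). It was inside when butyrate replicate 1, which is in neither condition but enters the shared estimate of the spread, was left out (log2 fold change 0.49, adjusted p = 2.6e-05). It was also inside with only the 8 libraries compared (adjusted p = 5.7e-04).

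The receptor genes did not pass the threshold. *Lifr* was 78.5 to 94.1 CPM with the combination and 88.4 to 109 CPM with IL-1β, which overlapped (log2 fold change -0.16 ± 0.057, adjusted p = 0.0345, edgeR). It passed the threshold without IL-1β replicate 4 (adjusted p = 0.00316) or without combination replicate 1 (adjusted p = 0.00925). *Il6ra* differed by -0.10 ± 0.042 and *Il6st* by -0.10 ± 0.049. *Osmr* differed by 0.45 ± 0.30 and *Socs1* by -0.45 ± 0.31, with at most 23 counts of either in these 8 libraries. *Socs1* was lower in all 4 combination libraries (12 to 16 counts) than in all IL-1β libraries on the CPM scale, without passing the test (adjusted p = 0.297, edgeR).

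Butyrate alone was compared with control islets as the matching effect without the cytokine. It raised 3 of the 10 genes and lowered 1, where 19.9% of all genes were called, 8.53% as raised and 11.4% as lowered. *Socs3* had 14.9, 15.8, 14.2 and 14.7 CPM with butyrate, well above the control libraries, none of which exceeded 8.89 CPM. It rose 1.72-fold (log2 fold change 0.79 ± 0.084, adjusted p = 5.3e-08, edgeR). *Socs2* had 9.54, 10.6, 10.3 and 11.2 CPM with butyrate, against at most 6.76 CPM in control islets (log2 fold change 0.70 ± 0.096, adjusted p = 2.7e-06, edgeR).

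*Stat3* was raised slightly by butyrate, at 158 to 182 CPM against 144 to 162 CPM in control islets, which overlapped. The log2 fold change was 0.19 ± 0.050 (adjusted p = 0.00406, edgeR), and the call was lost, with an adjusted p of 0.0163 to 0.0252, when control replicate 2, 3 or 4 or butyrate replicate 1 or 2 was left out. *Il6ra* was lowered, from at least 208 CPM in control islets to 184, 176, 183 and 184 CPM with butyrate, without overlap (log2 fold change -0.24 ± 0.042, adjusted p = 9.6e-05, edgeR). *Lifr*, at 140 to 150 CPM, was above all control libraries (127 to 133 CPM) but did not pass the threshold (log2 fold change 0.15 ± 0.056, adjusted p = 0.0503, edgeR). It passed with upper-quartile scaling (adjusted p = 0.00466) and with only the 8 libraries compared (adjusted p = 0.00439). Groups without overlap were seen for 30.1% of all genes in this comparison.

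*Cebpd* had a log2 fold change of 0.50 ± 0.28 with butyrate (adjusted p = 0.209, edgeR), and without butyrate replicate 1 it was 0.15 (adjusted p = 0.595, edgeR). *Cebpb* differed by 0.16 ± 0.065 (adjusted p = 0.0653), and *Il6st* by 0.01 with a 95% interval from -0.09 to 0.11. *Socs1* and *Osmr* had intervals more than 1 log2 unit wide.

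**Figure D4:**
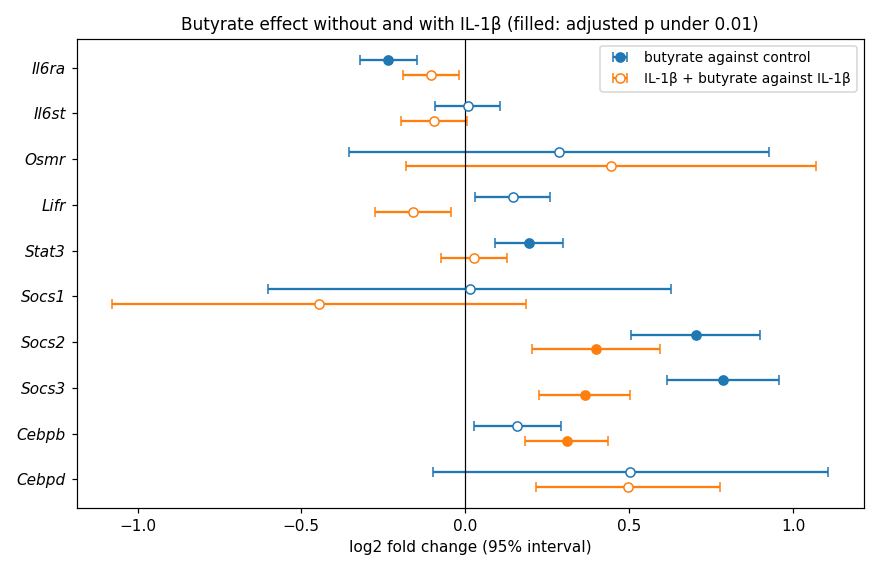
Log2 fold change with its 95% interval for each of the 10 genes, for butyrate against control (blue) and for IL-1β plus butyrate against IL-1β (orange), with filled points at an adjusted p under 0.01. Socs2 and Socs3 are raised in both comparisons, which share no libraries, and Il6ra is lowered in the first.

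Compared with control islets, the combination raised 5 of the 10 genes and lowered 2, where 30.6% of all genes were called, 15.8% as raised and 14.8% as lowered. The CPM did not overlap for these 7 genes, and for 38.5% of all genes. *Cebpd* rose 34.9-fold (log2 fold change 5.13 ± 0.19), *Socs3* rose 4.18-fold (2.07 ± 0.077) and *Stat3* rose 2.18-fold (1.13 ± 0.050). *Socs2* rose by 0.62 ± 0.096 and *Cebpb* by 0.59 ± 0.063 on the log2 scale. *Lifr* had a log2 fold change of -0.57 ± 0.056 and *Il6st* of -0.33 ± 0.049. *Il6ra*, at 209 to 227 CPM, overlapped the control libraries, with a log2 fold change of 0.02 ± 0.042. *Osmr* (0.44 ± 0.30) and *Socs1* (-0.36 ± 0.31) also overlapped and were not called.

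The other genes of the pathway were described with a list of 64 genes, written by role, of which 56 were tested. IL-1β raised 20 of them and lowered 2 (39.3% of the list called, beside 17.8% of all genes, with a median log2 fold change of 0.14 for the list and -0.03 for all genes). Among the ligands, *Lif*, the gene of leukemia inhibitory factor, was the only one called, at 1.35 to 1.76 CPM in control islets and 9.79 to 10.6 CPM with IL-1β (log2 fold change 2.66 ± 0.13, adjusted p = 3.3e-15, edgeR). *Il6* had 1 to 6 counts in a control library and 1 to 4 counts with IL-1β, and *Osm* had 1 to 4 and 2 to 4 counts, so neither passed the filter. *Cntf* (0 to 4 counts in either condition), *Il27* (2 to 8 and 1 to 11) and *Il31* (at most 1 and 0) did not pass it either. *Il11* had 20 to 26 counts in control islets against 16 to 32 with IL-1β, *Clcf1* 14 to 27 and 8 to 35, *Ctf1* 103 to 176 and 79 to 191, and *Ebi3* 27 to 35 and 22 to 40, and none of these was called.

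Among the kinases, *Jak3*, which serves the common gamma chain receptors of lymphocytes, was the only one of 4 called with IL-1β, at 6.46 to 7.25 CPM in control islets and 24.9 to 28.8 CPM with IL-1β (log2 fold change 1.95 ± 0.093). Among the other STAT genes, *Stat6* (0.28 ± 0.050), which serves the IL-4 receptor, was raised. Of the 13 other inhibitor genes, 2 were raised, the phosphatase genes *Ptpn1* (0.59 ± 0.049) and *Ptpn11* (0.23 ± 0.045), and no other SOCS gene or PIAS gene was called. *Cebpa* (1.95 ± 0.22) was raised and *Ddit3* (-0.24 ± 0.065) lowered among the other C/EBP genes. The 5 other receptor genes tested had adjusted p-values from 0.373 to 0.957 (edgeR).

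The STAT3 target genes were the role with the most calls. IL-1β raised 13 of the 20 and lowered 1, *Ccnd1*, which drives the cell cycle, and the same counts of 13 and 1 were called in the same direction both with and without butyrate. Of all genes tested, IL-1β raised 11.2% and lowered 6.59% without butyrate, and raised 9.92% and lowered 4.86% with it. The list rests on textbook knowledge but was written with earlier results of these data known, so its counts are a description. Many of its members are also targets of NF-κB or C/EBP factors. *Lcn2*, the siderophore-binding protein lipocalin 2, had 0.292 to 1.67 CPM in control islets and 808 to 1762 CPM with IL-1β. *Steap4*, a metalloreductase, had 0.0417 to 0.385 CPM and 383 to 424 CPM. Both were close to absent from control islets and abundant with IL-1β.

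*Saa3*, an acute phase serum amyloid gene with close relatives in the genome that could share reads, had 0.187 to 0.478 CPM in control islets and 48.2 to 75.6 CPM with IL-1β. *Icam1*, an adhesion molecule, had 0.327 to 0.50 CPM and at least 19.7 CPM. *Bcl3*, a nuclear regulator of NF-κB, had 5.69 to 8.07 CPM and 24.3 to 28.5 CPM. *Lrg1* and *Fgg*, which encode secreted acute phase proteins, had 0 to 2 counts in a control library, and 83 to 372 and 54 to 80 counts with IL-1β. *Hp*, the gene of haptoglobin, had at most 0.187 CPM in control islets and 3.62 to 9.13 CPM with IL-1β, and *Timp1*, a protease inhibitor, had 0.208 to 0.653 CPM and 0.925 to 1.62 CPM. The groups did not overlap for any of these 7 genes, as for 24.7% of all genes. The 7 were picked for a large change among genes already called, so this was close to given by the choice.

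**Figure D5:**
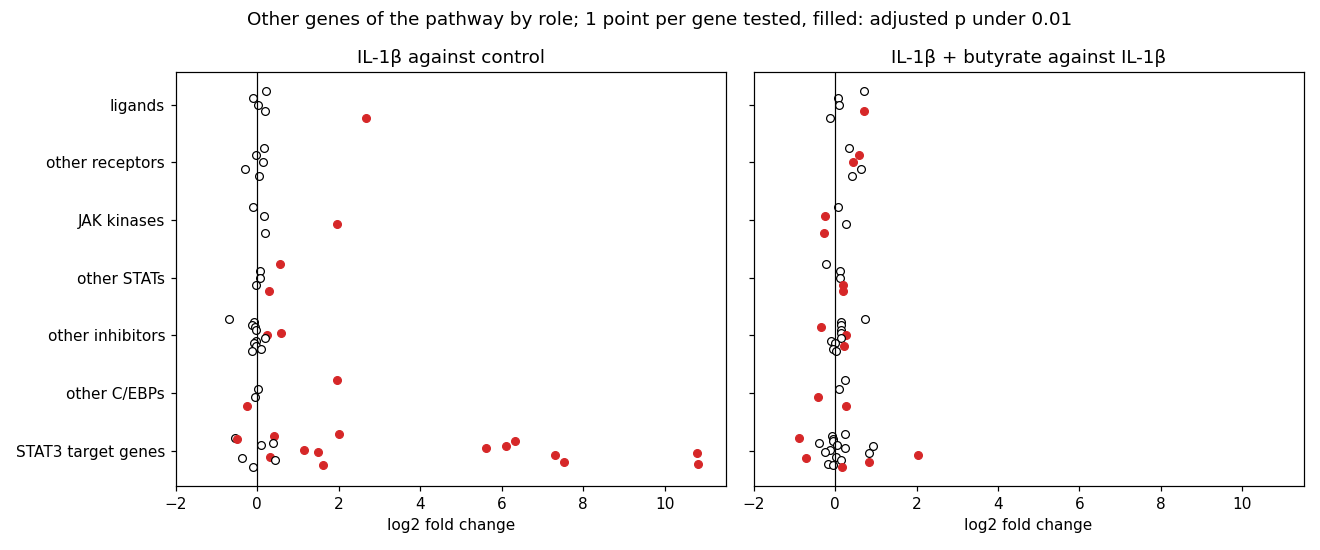
Fitted log2 fold change of each of the 56 other pathway genes tested, by role, for IL-1β against control (left) and for IL-1β plus butyrate against IL-1β (right), with 1 point per gene and filled points at an adjusted p under 0.01. With IL-1β the points beyond 5 are all STAT3 target genes, several of them near 0 in control islets so that their fitted fold depends on the prior count, and with butyrate added to IL-1β all but 1 of the points lie within 1 log2 unit of 0.

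When butyrate was added to IL-1β, 11 of the 56 genes were raised and 6 lowered (30.4%, beside 19.5% of all genes). *Lrg1* rose from 4.29 to 13.4 CPM with IL-1β to 22.8 to 54.7 CPM with the combination (log2 fold change 2.03 ± 0.37, adjusted p = 0.00106, edgeR), and *Saa3* rose to 83.6 to 131 CPM (0.84 ± 0.16, adjusted p = 0.00149, edgeR). *Vegfa* was the third STAT3 target gene raised (0.18 ± 0.046), while *Myc* (-0.71 ± 0.15) and *Birc5* (-0.89 ± 0.24), which act in growth and cell division, were lowered. *Lif* was at 9.10 to 9.91 CPM, and *Il11*, another ligand of gp130, was raised from 16 to 32 counts to 34 to 53 counts (0.72 ± 0.20). *Jak2* (-0.25 ± 0.049) and *Tyk2* (-0.28 ± 0.054), kinases that gp130 uses, and *Pias3* (-0.35 ± 0.053), the inhibitor of STAT3, were lowered. In the same comparison, 2 of 5 other receptor genes, 2 of 5 other STAT genes and 2 of 13 other inhibitor genes tested were raised. Of the 4 other C/EBP genes tested, 1 was raised and 1 lowered.

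Butyrate alone raised 11 of the 56 genes and lowered 7 (32.1%, beside 19.9% of all genes). Of the 4 JAK kinase genes, 1 was raised and 1, *Jak2*, was lowered (-0.37 ± 0.051). Of the 13 other inhibitor genes, 3 were raised and 1, *Pias3*, was lowered (-0.28 ± 0.052). Of the 5 other receptor genes tested, 3 were raised, among them *Il11ra1* (0.51 ± 0.095) and *Cntfr* (0.72 ± 0.17). The genome holds near-identical copies of *Il11ra1*, so its reads are uncertain. Of the 20 STAT3 target genes, only *Vegfa* (0.29 ± 0.046) was raised and 4 were lowered, and no acute phase gene of the list was called. In the butyrate libraries, *Lrg1* (45, 3, 1 and 9 counts), *Fgg* (33, 0, 2 and 2), *Saa3* (19, 13, 5 and 5) and *Hp* (3, 5, 7 and 7) rested on few counts. A change in them could have been missed. In the combination libraries, where *Socs2*, *Socs3*, *Cebpb*, *Lrg1* and *Saa3* were higher than with IL-1β alone, the sum of the delta cell markers was also higher without overlap, that of the macrophage markers other than *C1qa* was lower without overlap and that of the duct markers overlapped, and their part in these results was not tested.

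The genes whose pattern over the 16 libraries was most like each of the 10 were found by the root mean square (RMS) difference between centred log2 CPM, as a description. Candidates were the 12693 genes with an average log2 CPM of at least 1. For *Stat3*, whose own values had an RMS of 0.516 around their mean, the nearest were *Svil* (0.0783), *Rgs17* (0.0815) and *Dzip1l* (0.0927). For *Socs3* (own RMS 0.804) they were *Abcc3* (0.150), *Ifitm2* (0.179) and *Litaf* (0.186). For *Cebpd* (own RMS 2.34) they were *Gbp6* (0.270), *Zc3h12a* (0.317) and *Icam1* (0.433), the last of them on the list of STAT3 target genes.

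For *Cebpb* the nearest were *AI506816*, *Tcn2* and *Ndrg4* (0.0794 to 0.0834, own RMS 0.230), and for *Socs2* they were *Peak1*, *Tmem30b* and *Rbms2* (0.0901 to 0.116, own RMS 0.310). For *Lifr* they were *Amd1*, *Dnajc24* and *Flcn* (0.104 to 0.109, own RMS 0.303), for *Il6ra* they were *Sidt2*, *Cul7* and *Mrpl33* (0.0398 to 0.0509, own RMS 0.137), and for *Il6st* they were *Zfp322a*, *Sepsecs* and *Ffar1* (0.0442 to 0.0519, own RMS 0.159). *Osmr* was nearest to *Plxna4*, *Phkg1* and *Mx2* (0.235 to 0.258) and *Socs1* to *Gm1673*, *Vcpkmt* and *Zfp125* (0.246 to 0.278), where the counting error of so few reads was a large share of the values. No 2 of the 10 genes were among each other's nearest, but *Osmr* and *Socs1*, with an average log2 CPM below 1, were not candidates.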

How the data were processed

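Per the labels and the study's methods, RNA from islets was made into single-end libraries without molecular identifiers, sequenced and mapped with STAR 2.5.3a (submitters' processing notes, which also name bcl2fastq 2.19.1, FastQC 0.11.7, MultiQC 1.7 and DESeq2) to mm10/GRCm38.p5. The authors deposited raw counts of reads per gene, not normalized. The annotation release, the strand setting and filters are not given in the sources used here, so reads of genes that overlap on opposite strands may be mixed. Of 52636 genes, 10560 had no count, and 52489 identifiers were found in GENCODE M21 (symbols, positions, exon lengths). There were 0 columns of other samples and 0 rows naming no gene. Totals were 18635943 to 25955943 counts. Between libraries of 1 condition, the chi-square per gene was 1.72 to 13.5, so none was counted as a repeat of another.

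In R 4.3.3, edgeR 4.0.16 filtered genes (filterByExpr, 18587 left), scaled by TMM and fitted 1 robust quasi-likelihood model to the 16 libraries, with the 4 conditions and no block. The threshold for a call was the study's, 0.01, on p-values adjusted by Benjamini-Hochberg. CPM are TMM-scaled, FPKM are CPM per kilobase of exon, log2 CPM used a prior count of 2, errors of fold changes are standard errors, and 95% intervals use the t distribution. The fit was tested on simulated data.

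The 10 genes, the lists and the tests were chosen with earlier results of these data known. All 10 were named in every comparison, with the 12 other pathway genes of largest change among those called with IL-1β or on adding butyrate to it, every ligand of the family, and the 3 nearest genes of each of the 10. Other pathway genes with values were picked after these were seen, to show what was called in each role. Alternatives were RLE, upper-quartile and library-size scaling, no filter, DESeq2 1.42.0, a replicate block, only the conditions compared, a threshold of 0.05, and leaving out each library. Motifs were searched in RefSeq promoter windows, where 1 match in the windows of the 10 genes was found. Some single-gene results of the pathway list are not reported here.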

Additional observations from a re-analysis of the deposited data

Results flagged for a closer look

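Of the 40 sets of 4 libraries (10 genes in 4 conditions), 3 held a library far from the other 3, by the size of its gap relative to the range, and chance alone sets apart about 1 in 20 such sets. *Cebpd* was 7.33 CPM in butyrate replicate 1, where the other butyrate libraries had 3.20 to 3.50 CPM, and this library also held more counts of *Steap4*, *Fgg*, *Lrg1* (45 against 3, 1 and 9) and *Lcn2* (166 against 31, 2 and 73) than the other 3. *Stat3* and *Socs1* were highest in that library as well, with 182 and 1.16 CPM, while *Socs3* at 14.9 CPM lay within the range of the others and *Hp* had 3 counts against 5, 7 and 7. *Cebpd* was 2.57 CPM in control replicate 4, below the 3.17 to 3.25 CPM of the other control libraries. *Il6ra* was 176 CPM in butyrate replicate 2, below the 183 to 184 CPM of the other butyrate libraries, all of which lay below the control libraries. The cause of these values was not tested.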

How the results depend on the processing

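Over the 60 fold changes of the 10 genes and 23 alternatives, 1308 of 1368 values kept their direction and side of the threshold, 7 lost a call, 14 gained one and 39 changed direction, 0 of these for a change called in the report. Those that changed direction were near 0 or rested on few counts. *Osmr* with IL-1β was 0.0016 with RLE factors, 0.063 with library size, 0.0097 without the filter, 0.0021 with DESeq2 and 0.0052 with only the conditions compared (-0.31 to 0.26 when each library was left out). With butyrate alone, *Il6st* was -0.016 with library size and -0.011 without the filter (-0.012 to 0.019), and *Socs1* -0.0087 and -0.0054 (-0.23 to 0.27). *Socs2* was 0.013 with library size in the combination against butyrate, and the difference of the IL-1β effects for *Cebpd* was 0.030 with library size and 0.0038 without the filter (-0.13 to 0.35). Leaving out 1 library also turned *Socs1* with IL-1β (-0.049 to 0.35), *Stat3* on adding butyrate to IL-1β (-0.012 to 0.033), *Il6ra* with the combination against control (-0.0046 to 0.039) and the difference for *Osmr* (-0.098 to 0.47). On adding butyrate to IL-1β, 5 of the 10 genes and 26 of the pathway list were called at 0.05 (2 to 4 and 12 to 19 when 1 library was left out, at 0.01). No scaling moved the median of all genes by over 0.1. The cause of these shifts was not tested.

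The replicate number is not said to pair libraries. Correlations of deviations between same-numbered libraries were 0.053 to 0.40 (median 0.12), with 17 of 24 over 0.1. Between libraries of other numbers they were -0.29 to 0.17 (median -0.040), with 6 of 72 over 0.1. For 10 of 16 libraries, the closest library in every other condition had the same number. With the replicate number as a block, 5 of the 10 genes and 26 of the list were called on adding butyrate to IL-1β, and 1 gene, *Lifr*, for the difference of the IL-1β effects (adjusted p = 0.0068). The calls gained among the 10 genes were otherwise *Il6ra* with IL-1β (adjusted p = 0.0078) and *Lifr* (0.0068) and *Cebpd* (0.0012) on adding butyrate to IL-1β, and the block changed no other call of these genes.

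Depth limits *Osmr* and *Socs1*, with at most 25 counts in a library.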
